A study of Mus musculus with 8 samples.

Results

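The small leucine-rich proteoglycans of mouse bone marrow stromal cells were compared between cultures from Lgr6-null and wild-type mice. R-spondins, secreted proteins that raise Wnt signaling, bind Lgr6 on the cell surface. The 10 genes were taken by name from a table of 19460 genes: Dcn, Bgn and Aspn of class I, Fmod, Lum, Prelp, Kera and Omd of class II, Ogn of class III and Chad of class IV. Of them 9 had a row and 8 had enough reads to be tested. Kera was not analysed here, and Chad is given as reads alone. Messenger RNA was sequenced from 8 libraries, 4 per genotype, all on a C57BL/6 background. The Lgr6-null group was homozygous for Lgr6-GFP-ires-CreERT2, an allele that places a reporter and an inducible Cre recombinase at Lgr6, so these cells differ from wild-type also by what the cassette encodes. The labels name no tamoxifen treatment. Both genotypes received the same osteogenic medium for 10 days, in which 4 mM β-glycerophosphate and 50 µg/mL ascorbic acid were added to serum-containing MEM. Age and sex are not in the labels. Nor do they tell whether a genotype's libraries are separate mice or separate dishes, and the p-values here therefore rest on the spread among libraries of unstated origin.

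These proteins are secreted into the matrix, where a curved stack of leucine-rich repeats binds collagen fibrils and sets how thick they grow and how they are spaced. Many carry chains of chondroitin, dermatan or keratan sulfate, or clusters of sulfated tyrosine, and several bind TGF-β family growth factors or cell surface receptors. In bone, biglycan and osteoadherin are known as matrix proteins of osteoblasts, and decorin and lumican are abundant in fibrous connective tissue.

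Members of the family lie in clusters on the chromosomes, and 5 start regions are shown here because they belong to the clusters the results turn on: the Prelp and Fmod pair of chromosome 1 and the Aspn, Omd and Ogn row of chromosome 13. Each is the 250 bases before the annotated start (RefSeq, build GRCm38.p6), 5′ to 3′ on the gene's strand, with matches to any of 3 motifs on either strand in capitals. The RUNX core, which RUNX factors of bone and blood cells bind, was searched as TGTGGT. Near many start sites lies the TATA box, which was searched as TATAAA. The third motif was the GC box of the SP family of factors, and it was searched as GGGCGG. The table of promoters held 8 of the 10 genes; Lum and Dcn had none in it.
Fmod (chr1:134037004-134037253, plus strand): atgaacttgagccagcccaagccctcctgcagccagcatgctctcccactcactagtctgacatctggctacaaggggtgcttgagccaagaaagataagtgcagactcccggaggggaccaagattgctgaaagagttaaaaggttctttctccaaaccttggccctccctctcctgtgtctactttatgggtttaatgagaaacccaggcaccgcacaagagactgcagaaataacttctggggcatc
Prelp (chr1:133921402-133921651, minus strand): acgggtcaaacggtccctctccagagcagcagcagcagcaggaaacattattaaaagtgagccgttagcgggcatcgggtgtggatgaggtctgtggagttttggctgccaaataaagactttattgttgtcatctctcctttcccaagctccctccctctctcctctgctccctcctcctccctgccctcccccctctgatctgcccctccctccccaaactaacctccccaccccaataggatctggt
Aspn (chr13:49544193-49544442, plus strand): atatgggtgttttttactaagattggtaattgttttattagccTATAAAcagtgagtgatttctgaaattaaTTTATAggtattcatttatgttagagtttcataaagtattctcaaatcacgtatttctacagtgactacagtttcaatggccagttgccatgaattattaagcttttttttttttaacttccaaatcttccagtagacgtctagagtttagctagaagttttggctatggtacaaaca
Omd (chr13:49582212-49582461, plus strand): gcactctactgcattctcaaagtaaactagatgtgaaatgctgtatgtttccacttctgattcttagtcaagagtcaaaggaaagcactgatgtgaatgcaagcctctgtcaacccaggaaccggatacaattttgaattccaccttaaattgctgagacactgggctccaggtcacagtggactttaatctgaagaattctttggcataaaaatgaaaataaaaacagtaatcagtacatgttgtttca
Ogn (chr13:49607765-49608014, plus strand): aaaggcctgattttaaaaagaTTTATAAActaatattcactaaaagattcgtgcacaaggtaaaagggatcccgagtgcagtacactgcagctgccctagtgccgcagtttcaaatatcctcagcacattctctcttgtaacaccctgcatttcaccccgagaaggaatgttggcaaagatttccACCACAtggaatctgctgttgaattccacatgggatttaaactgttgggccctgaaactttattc

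The Ogn sequence held 1 RUNX core, beginning 65 bases before the start, and 2 overlapping TATA boxes at 229 and 227 bases. The Aspn sequence held 2 TATA boxes, at 207 and 178 bases. The windows of Fmod, Prelp and Omd held none of these letters. Of all 32851 promoters of this length, 14.0% held the RUNX core, 12.4% a TATA box and 32.7% a GC box, so matches of this kind are frequent and describe the letters only. The share of G and C was 30.0% for Aspn, 38.4% for Omd and 42.0% for Ogn, against 51.2% for Fmod and 55.6% for Prelp and a median of 52.4% over all promoters. The 3 genes of chromosome 13 were thus poorer in G and C than the median, and Prelp was above it.

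Levels are the authors' normalized counts, given per library in the order M0, M1, M2, M3 for wild-type and M0, M2, M3, M4 for Lgr6-null. These are the column names, which could be tied to the genotype but not to single sample titles. Libraries held 7629968 to 21135173 reads in genes, the lowest in Lgr6-null M4, and the tested family members had 223 to 46611 reads in a library. A principal component analysis set the genotypes apart on its first axis. Lgr6 (chromosome 1) was at 1287 ± 303 normalized counts in wild-type (SD, n = 4) and at 76.2 ± 19.2 in Lgr6-null, 5.92% of it, with no overlap between the genotypes. A two-sided exact permutation test gave p = 0.0286, which no comparison of 4 with 4 libraries can go below.

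The genotypes were compared with limma on log2(normalized count + 1) for 14294 genes, and calls required an adjusted p (Benjamini-Hochberg) below 0.05. Positive log2 fold changes mean a higher level in Lgr6-null, and SE is their standard error. Of the 8 tested family members 6 were called: Lum, Dcn, Ogn and Aspn were higher in Lgr6-null, and Fmod and Prelp were lower. Over all genes 25.7% were called, 13.0% higher and 12.7% lower. When libraries were scaled to the same total, 2892 genes were higher and 1281 lower in place of 1855 and 1821. Scaling them to 15 genes shared by mesenchymal cells, which moved the median of all genes by -0.28 log2, gave 556 and 3311. The 6 calls kept their direction in both, with log2 fold changes of -2.12 for Fmod, -1.34 for Prelp, 1.25 for Lum, 0.62 for Ogn, 0.52 for Dcn and 0.99 for Aspn in the mesenchymal scaling. The median log2 fold change of the 8 members was 0.48, against 0.001 over all genes tested. The genotypes did not overlap in any library for 4 members, Lum and Ogn above and Fmod and Prelp below, where 14.4% of all genes lay wholly above, 14.7% wholly below and 29.1% either. The calls thus went in both directions within the family. In bulk RNA, fewer cells of a type and less RNA per cell cannot be told apart.

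**Figure D1:**
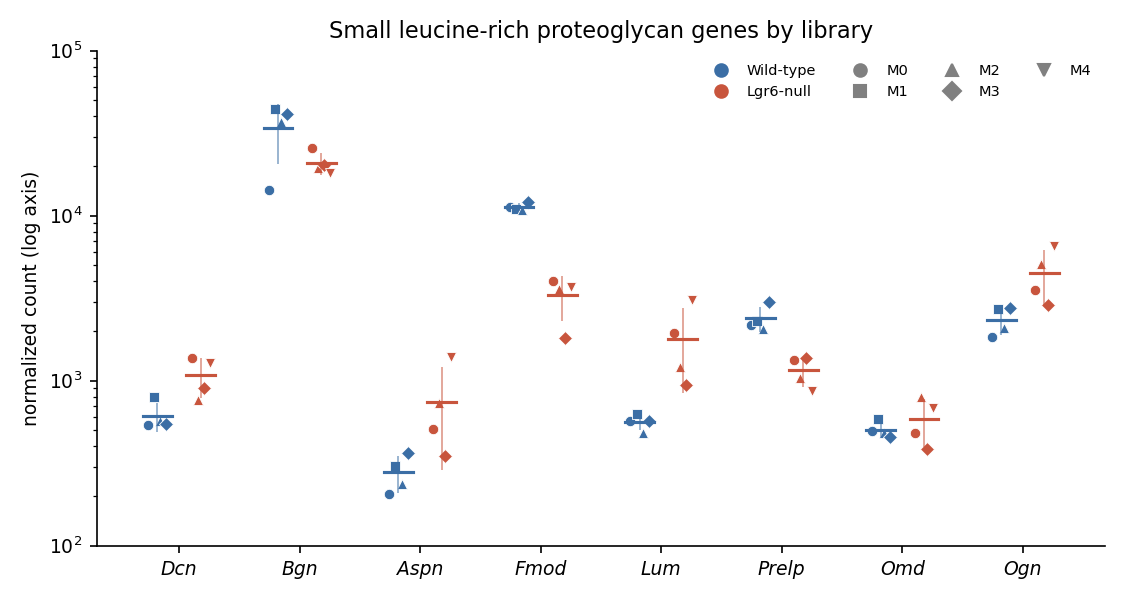
Normalized counts of the 8 tested small leucine-rich proteoglycans in each library (log axis), with a point shape for each column number, horizontal bars for the mean of 4 and thin lines for 1 SD either side. Fmod and Prelp of Lgr6-null lie below every wild-type library, Lum and Ogn lie above every one, and Bgn of wild-type M0 (14300.3) lies below all Lgr6-null libraries.

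Of class I, decorin and asporin were higher in Lgr6-null and biglycan was not called. Dcn, which encodes decorin, the proteoglycan that carries a single chondroitin or dermatan sulfate chain and coats collagen fibrils, was at 535, 792, 569.7 and 548 normalized counts in wild-type and at 1378, 769, 899 and 1277 in Lgr6-null. The genotypes overlapped, since wild-type M1 was above Lgr6-null M2, and wild-type M1 stood apart from the other wild-type libraries. The means were 611 ± 122 and 1081 ± 293 (SD, n = 4), 1.77-fold higher in Lgr6-null. The log2 fold change was 0.80 (SE 0.20, limma adjusted p = 0.0148).

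Aspn, which encodes asporin, a relative of decorin with an aspartate-rich start that is known to bind collagen and TGF-β, was at 207, 305, 237 and 362 normalized counts in wild-type and at 510.2, 732, 351 and 1389.9 in Lgr6-null. Lgr6-null M4 was the highest by far, and Lgr6-null M3 lay below wild-type M3. The log2 fold change was 1.27 (SE 0.37, limma adjusted p = 0.03), from 278 ± 69.6 to 746 ± 457 normalized counts (SD, n = 4). The call was lost when wild-type M0, M1 or M2 or Lgr6-null M2 was left out, with limma adjusted p of 0.0742, 0.0596, 0.0752 and 0.0635, and without the mean-variance trend (limma adjusted p = 0.0586).

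Bgn (X chromosome), which encodes biglycan, the chondroitin sulfate proteoglycan that is abundant in bone matrix, was at 14300.3, 44131, 36822 and 41300.4 normalized counts in wild-type and at 25562, 19589.8, 20198 and 18061 in Lgr6-null. In 3 wild-type libraries it exceeded every Lgr6-null library, and in wild-type M0 it lay below all of them. The means were 34138 ± 13563 and 20853 ± 3266 (SD, n = 4). The log2 fold change was -0.60 (95% interval -1.31 to 0.12, limma adjusted p = 0.205), and Bgn was not called. The outcome depended on 1 library. Without wild-type M0 the log2 fold change was -0.98 (limma adjusted p = 0.00164). Bgn was also called lower with DESeq2 on the recovered reads (-0.71, DESeq2 adjusted p = 0.0363) and with the mesenchymal scaling (-0.88, limma adjusted p = 0.013).

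Of class II, fibromodulin and PRELP were lower in Lgr6-null, lumican was higher and osteoadherin was not called. Fmod encodes fibromodulin, a keratan sulfate proteoglycan with sulfated tyrosines that binds collagen and limits fibril growth. It was at 11231, 10951, 10757 and 12159 normalized counts in wild-type and at 4044, 3601, 1816 and 3702 in Lgr6-null. The lowest wild-type library was above the highest Lgr6-null library, and Lgr6-null M3 was the lowest of all. The means of 11275 ± 621 and 3291 ± 1001 (SD, n = 4) differed 3.43-fold. The log2 fold change came to -1.84 (SE 0.22, limma adjusted p = 0.000339).

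Prelp encodes an arginine- and proline-rich relative of fibromodulin whose start binds heparin and heparan sulfate, and which is known to join basement membranes to collagen. It was at 2188, 2306, 2070.5 and 3003 normalized counts in wild-type and at 1333, 1032, 1377 and 871 in Lgr6-null, again without overlap. The means were 2392 ± 418 and 1153 ± 243 (SD, n = 4). The log2 fold change was -1.06 (SE 0.16, limma adjusted p = 0.00135).

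Lum encodes lumican, a keratan sulfate proteoglycan of cornea and other connective tissue that binds fibrillar collagen. It was at 573, 629, 479 and 568 normalized counts in wild-type and at 1957, 1211, 938 and 3081 in Lgr6-null. Every Lgr6-null library was above every wild-type library, and the Lgr6-null libraries themselves spread 3.28-fold from M3 to M4, against 1.31-fold in wild-type. The means were 562 ± 61.9 and 1797 ± 959 (SD, n = 4), 3.20-fold higher, and the log2 fold change was 1.53 (SE 0.31, limma adjusted p = 0.00598). With all 8 libraries and no covariate, Lum rose the most and Fmod fell the most of the 8 tested members; with the macrophage markers as a covariate, Aspn (2.81) was above Lum (2.58) and Prelp (-1.56) below Fmod (-1.02).

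Omd, which encodes osteoadherin, a keratan sulfate proteoglycan of mineralized tissue that binds bone mineral and cells, was at 493, 583, 483 and 457 normalized counts in wild-type and at 479, 801, 386 and 682 in Lgr6-null. Lgr6-null M3 was the lowest and M2 the highest of the 8 libraries, so the wild-type range lay inside the Lgr6-null range. The log2 fold change was 0.17 (95% interval -0.29 to 0.62, limma adjusted p = 0.601). Its sign turned without Lgr6-null M2 (-0.000776) and with the mesenchymal scaling (-0.11).

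Of class III, Ogn encodes osteoglycin, also called mimecan, a small proteoglycan of bone and other connective tissue. It was at 1836, 2725, 2092 and 2741 normalized counts in wild-type and at 3535, 5082, 2895 and 6594 in Lgr6-null. All Lgr6-null libraries were above all wild-type libraries, but Lgr6-null M3 exceeded wild-type M3 by little. The means were 2349 ± 456 and 4527 ± 1656 (SD, n = 4). On the log2 scale Ogn differed by 0.89 (SE 0.24, limma adjusted p = 0.0227). The call was lost without wild-type M0, wild-type M2 or Lgr6-null M2, with limma adjusted p of 0.059, 0.0607 and 0.0539.

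Chad of class IV, which encodes chondroadherin, a cartilage protein that binds cells through integrins, was near the limit of detection. It had 7, 22, 9 and 7 reads in wild-type and 13, 2, 2 and 4 in Lgr6-null, 45 and 21 reads in all. Wild-type M1 and Lgr6-null M0 held the most in their groups, and the groups overlapped. Chad did not pass the filter, which asked for 10 normalized counts or more in 4 or more libraries. Without the filter its log2 fold change was -1.10 (limma adjusted p = 0.234), and no difference was detectable at this depth.

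**Figure D2:**
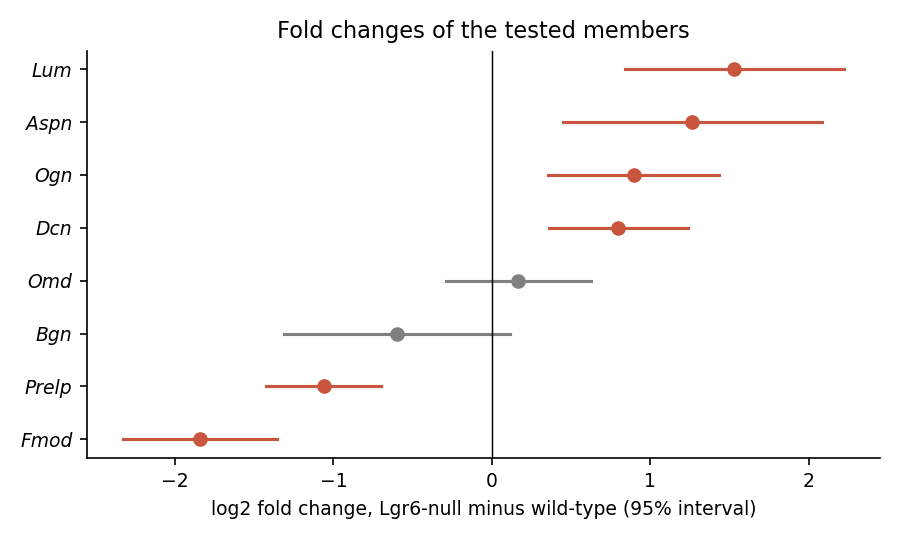
Log2 fold change (Lgr6-null minus wild-type, log2 of normalized count + 1) of each tested member with its 95% interval, ordered by size, called genes in red and others in grey. Fmod at -1.84 and Lum at 1.53 mark the ends, and the intervals of Bgn and Omd hold 0.

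Per kb of exon, used to set levels of different genes side by side, the order of the members differed between the genotypes. Length was that of all annotated exons of a gene merged, 6.099 kb for Bgn and 5.838 kb for Dcn against 2.448 kb for Lum and 2.249 kb for Omd. The length of the transcripts present was not measured, so ranks between genes and the shares below depend on this choice. In wild-type, Bgn was at 5597 ± 2224 normalized counts per kb (SD, n = 4) and Fmod at 3410.3 ± 188. Ogn followed at 915 ± 178 and Prelp at 662 ± 116 per kb. Lum, Omd, Aspn and Dcn were lower, at 229.7, 224, 118 and 105 per kb. The libraries of Bgn and Fmod, Ogn and Prelp, Lum and Omd, and Aspn and Dcn overlapped, so these neighbours were not set apart, while Fmod was above Ogn, Prelp above Lum and Omd above Aspn in every library.

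In Lgr6-null the order per kb was Bgn (3419 ± 535), Ogn (1764 ± 646), Fmod (995 ± 303) and Lum (734 ± 392), with SD over 4 libraries. Prelp, Aspn, Omd and Dcn followed at 319, 317, 261 and 185 per kb. Bgn stood above Ogn and Lum above Prelp without overlap, and the other neighbours in this order overlapped. Fmod was thus next to Bgn in wild-type and among Ogn and Lum in Lgr6-null.

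As shares of the family's summed count per kb, Bgn and Fmod together made up 79.5% ± 3.39 of it in wild-type (SD, n = 4; 74.6% to 82.3%) and 55.9% ± 8.68 in Lgr6-null (44.1% to 62.8%). The mean share of Fmod was 31.7% and 12.2%, and that of Bgn 47.9% and 43.6%. The share of Ogn was 8.22% and 21.8%, and that of Lum 2.13% and 8.83%. The summed count per kb was 11261 ± 2515 in wild-type and 7994 ± 1309.8 in Lgr6-null (SD, n = 4), with overlapping libraries. Shares of a sum move together, so a lower share of Fmod by itself raises the others.

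**Figure D3:**
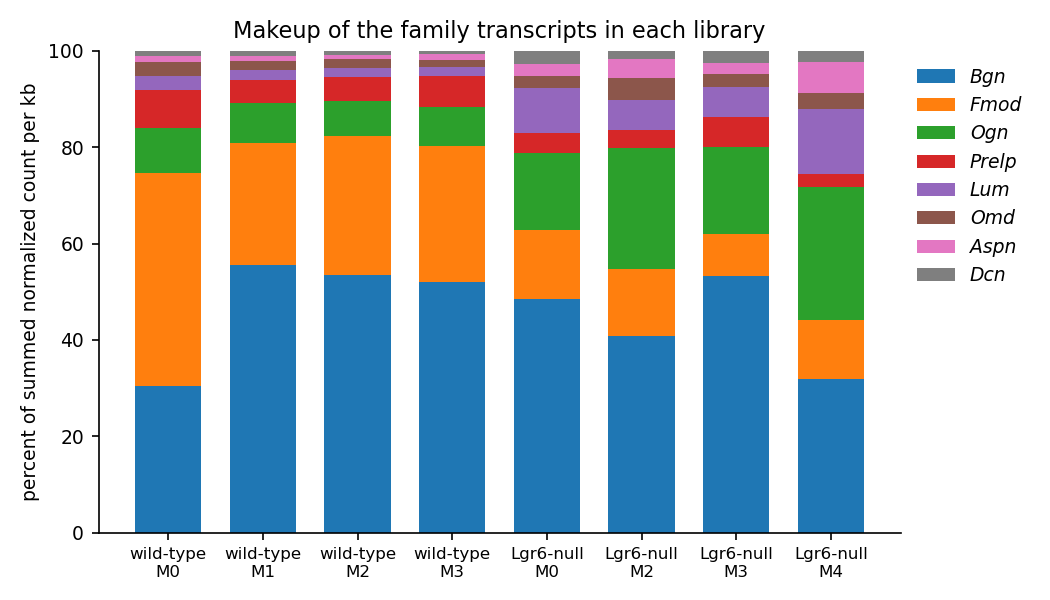
Share of each member in the summed normalized count per kb of the 8 tested members, in percent, for each library. Bgn and Fmod fill 74.6% to 82.3% of each wild-type bar and 44.1% to 62.8% of each Lgr6-null bar.

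Ratios within a library hardly depend on how libraries were scaled, and 6 pairs of close relatives or chromosome neighbours were compared, with p-values adjusted over the 6. The log2 ratio of Fmod to Lum was 4.29, 4.12, 4.49 and 4.42 in wild-type and 1.05, 1.57, 0.95 and 0.26 in Lgr6-null. On the linear scale Fmod had 17.4 to 22.4 times the count of Lum in wild-type and 1.20 to 2.97 times in Lgr6-null. The difference of -3.37 on the log2 scale had a two-sided exact permutation p of 0.0286 (adjusted 0.0429). That is the lowest p 4 against 4 libraries allow, and the adjusted value depends on how many of the 6 pairs reach it. Since Lgr6-null lay wholly below wild-type for Fmod and wholly above it for Lum, the p of this ratio was fixed in advance. It adds nothing to the calls of the 2 genes. With all 8 libraries, and without wild-type M0, 4 pairs passed an adjusted p of 0.05. Without any other single library the differences kept their sign and those 4 adjusted p-values were 0.0571 to 0.0857. The unadjusted exact permutation p of Fmod to Lum stayed at 0.0286 in each of these, so its adjusted p rose only through the other pairs. The ratio of Fmod to Prelp, its neighbour on chromosome 1, differed by -0.78 with overlapping libraries (exact permutation p = 0.0571, adjusted 0.0571) and was not called.

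Against Bgn, both class I relatives were higher in Lgr6-null. The log2 ratio of Dcn to Bgn was -4.74, -5.80, -6.01 and -6.23 in wild-type and -4.21, -4.67, -4.49 and -3.82 in Lgr6-null, and it differed by 1.40. The log2 ratio of Aspn to Bgn differed by 1.86. In both pairs the highest wild-type ratio was in M0, the library low in Bgn, and it still lay below every Lgr6-null library. Each had an exact permutation p of 0.0286 (adjusted 0.0429).

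Among the chromosome 13 neighbours, the log2 ratio of Ogn to Omd was 1.90, 2.22, 2.11 and 2.58 in wild-type and 2.88, 2.66, 2.90 and 3.27 in Lgr6-null, and it differed by 0.73 without overlap (exact permutation p = 0.0286, adjusted 0.0429). The ratio of Ogn to Aspn differed by -0.37 with overlap (exact permutation p = 0.0571, adjusted 0.0571). Ogn and Aspn also ranked the libraries alike, M3, M1, M2, M0 from high to low in wild-type and M4, M2, M0, M3 in Lgr6-null, and Omd, which lies between them, ranked M1, M0, M2, M3 and M2, M4, M0, M3.

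**Figure D4:**
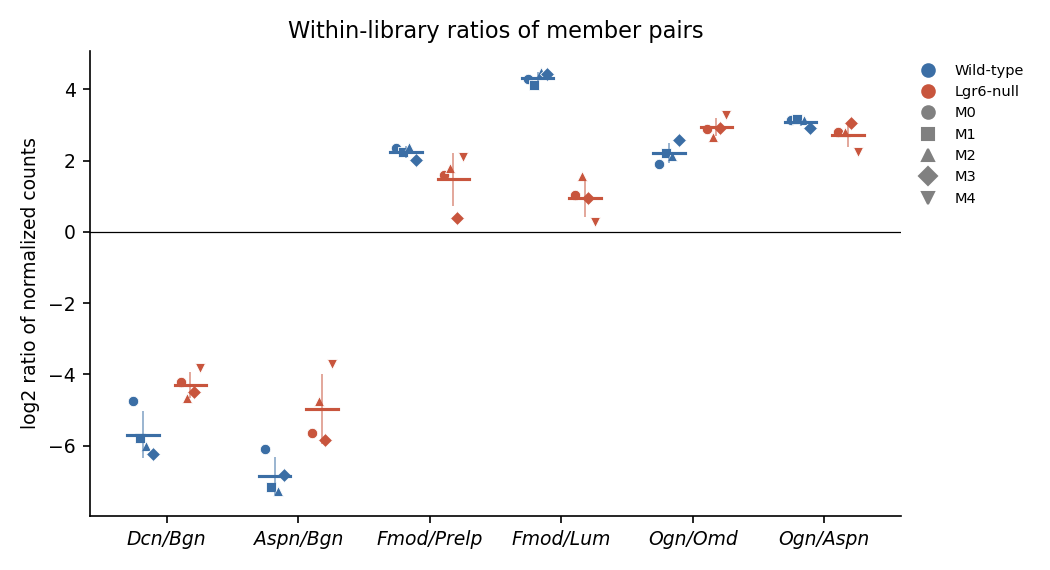
Log2 ratio of normalized counts within each library for 6 pairs of members, with a point shape for each column number, horizontal bars for the mean of 4 per genotype and thin lines for 1 SD either side. Fmod over Lum lies between 4.12 and 4.49 in wild-type and between 0.26 and 1.57 in Lgr6-null.

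The places of the genes bear on how these values are read. Fmod and Prelp, the members that fell, lie on the same chromosome as Lgr6, 0.935 and 1.06 Mb from it and 116 kb from each other (distances from a GRCm38 annotation). Whether sequence around the targeted allele differed between the genotypes at these distances was not tested. Of the 10 other tested genes between Prelp and Lgr6, 2 were called in limma, both lower. Over all genes 25.7% were called in either direction and 12.7% lower. They were Rabif at -0.34 and Ube2t at -0.96 log2, named after their values were seen. The genes beside the pair were not called, with log2 fold changes of -0.12 for Atp2b4, a calcium pump, and 0.36 for Btg2, an antiproliferative gene.

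On chromosome 10, Dcn and Lum lie 47.0 kb apart and both rose, by 0.80 and 1.53 log2. Their outer tested neighbours Btg1, an antiproliferative gene, and Atp2b1, a calcium pump, were not called (0.26 and 0.06 log2). Both lie far off, Btg1 857 kb from Dcn and Atp2b1 1342 kb from Lum. On chromosome 13, Aspn, Omd and Ogn follow each other within 14.9 and 15.2 kb, and the genes on either side were not called, Ecm2 at -0.20 and Nol8 at -0.22 log2. All of the 3 lie inside the longer gene Cenpp on the opposite strand, whose mean was 13.2 normalized counts. Beside Bgn, Haus7 and Dusp9 were at -0.03 and -0.71 log2 and not called. Chad lies inside Acsf2 on the opposite strand, which was at 0.22 log2 and not called, and next to Lrrc59, which was called lower at -0.45. Prelp overlaps an antisense gene, Gm15851, that was not analysed here. The library kit marks strand, and the strand setting of the counting is not given in the sources used here, so reads of such pairs may not be separated.

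The genes most like a member over the 8 libraries were found by the root mean square difference of log2 values, each taken relative to its own wild-type mean. For Fmod these were Alpl, the alkaline phosphatase of mineralizing cells (0.194 log2), 2310043M15Rik (0.201) and Gm15834 (0.221). Alpl was at 21517, 24192, 20739 and 22486 normalized counts in wild-type and at 5791, 8209.8, 3391 and 7297 in Lgr6-null. For Prelp they were 2700038G22Rik (0.165 log2), AC127331.2 (0.172) and P4ha2, a collagen prolyl hydroxylase subunit (0.175).

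For Lum the nearest were Gm5898 (0.188 log2), a processed pseudogene that aligns to Thrap3 and whose count is therefore uncertain, Bnc2, a zinc finger factor (0.291), and Hs6st2, a heparan sulfate sulfotransferase (0.308). Bnc2 was at 42.7, 28.4, 36.6 and 54.4 normalized counts in wild-type and at 144, 94.6, 56.5 and 231 in Lgr6-null, highest in M4 as Lum was. For Dcn they were A130077B15Rik (0.209 log2), Gm48838 (0.209) and Pcx, the pyruvate carboxylase (0.220). Both genotypes enter this measure, so it holds the difference between them as well as the spread among libraries.

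Of 8 further genes of the leucine-rich proteoglycan superfamily, 5 were tested, with 1 higher and 1 lower in Lgr6-null and a median of -0.20 log2. Podn, which encodes podocan, rose by 0.80 log2 (SE 0.25, limma adjusted p = 0.0432), from 75.1 ± 20.1 to 134 ± 46.3 normalized counts (SD, n = 4), and its call was lost in 9 of 20 alternatives. Its relative Podnl1 fell by 0.67 log2 (SE 0.14, limma adjusted p = 0.00721), from 895 ± 145 to 562 ± 93.1, and its call was lost with the macrophage markers as a covariate (limma adjusted p = 0.526).

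Chondroitin and dermatan sulfate chains, which decorin and biglycan carry, are built by a set of which all 29 listed genes were tested. Of them 4 were called higher and 9 lower, with a median of -0.10 log2. The 4 with the smallest p all fell. Xylt1, which adds the first sugar to the core protein, fell from 567 ± 75.0 to 239 ± 22.7 normalized counts (SD, n = 4; -1.24 log2, limma adjusted p = 7.06e-05). Xylt2, named after its values were seen, serves the same step and was higher in level, at 2288 ± 214 and 2388 ± 322. It was not called (0.06 log2, limma adjusted p = 0.736). Chsy1, a chondroitin synthase that lengthens the chain, fell from 2248 ± 209 to 960.1 ± 41.1 (-1.22 log2, limma adjusted p = 9.06e-06). Its libraries were at 2017, 2512, 2168 and 2294 in wild-type and 957, 1019, 937 and 928 in Lgr6-null, far apart.

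Chst11 and Chst13, which encode chondroitin 4-O-sulfotransferases, fell as well, but Chst12, which encodes another, rose. Chst11 was at 2060.1 ± 189 and 1141 ± 132 normalized counts (SD, n = 4; -0.86 log2, limma adjusted p = 0.000228), and Chst13 at 182 ± 48.6 and 37.8 ± 3.82 (-2.20 log2, limma adjusted p = 9.89e-05). Among the 4 called higher, named after their values were seen, Dse, the epimerase that turns chondroitin into dermatan sulfate, rose by 0.38 log2 and Csgalnact1, which starts the chain proper, by 0.95. Chst12, also among these 4, rose by 0.54 log2, from 747 ± 31.4 to 1095 ± 166 normalized counts (limma adjusted p = 0.00394).

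**Figure D5:**
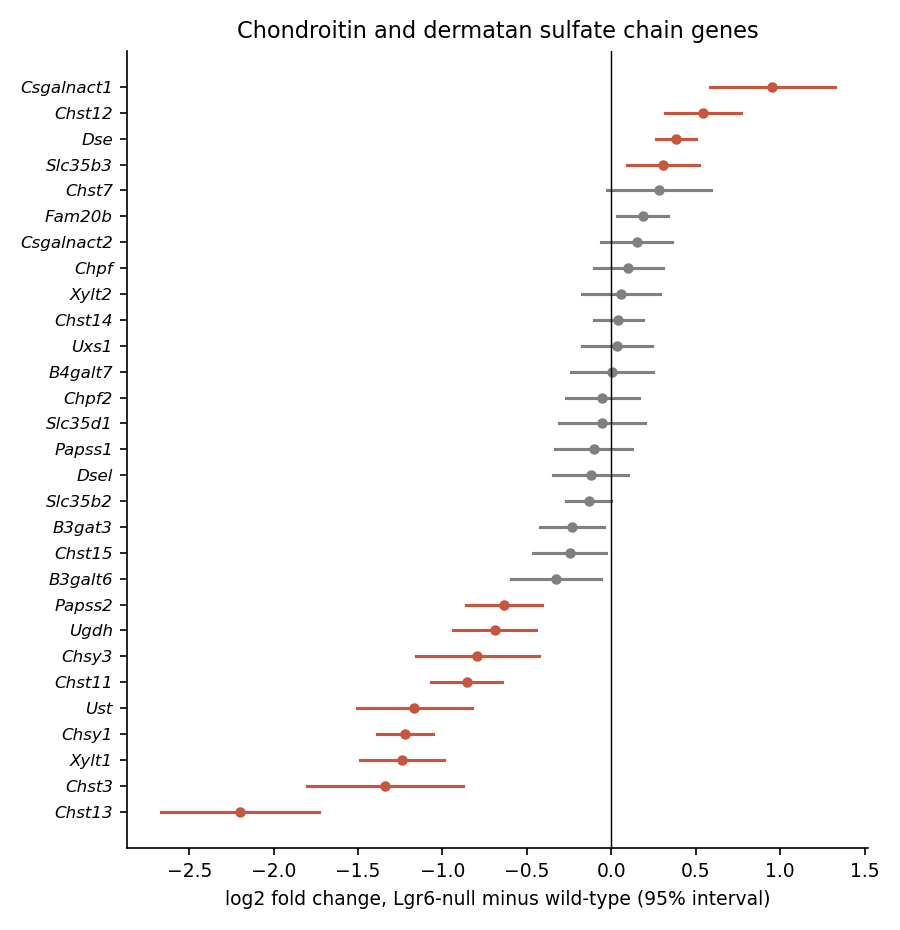
Log2 fold change (Lgr6-null minus wild-type) with its 95% interval for the 29 genes of chondroitin and dermatan sulfate chain synthesis, called genes in red and others in grey. Calls lie on both sides, 4 higher and 9 lower, with Chst13 at -2.20 farthest below 0 and Csgalnact1 at 0.95 farthest above it among the called genes.

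Keratan sulfate, the chain of fibromodulin, lumican and osteoadherin, is made by another set, in which 8 of 10 genes were tested, 2 called higher and 1 lower, with a median of 0.37 log2. Chst2, a sulfotransferase, rose by 0.62 log2 (limma adjusted p = 0.00324) and B4galt1, a galactosyltransferase, by 0.34 (limma adjusted p = 0.0112). St3gal1, a sialyltransferase, fell by 0.99 log2 (limma adjusted p = 0.000136). The call of Chst2 was lost with the mesenchymal scaling (limma adjusted p = 0.12), as was that of B4galt1 (limma adjusted p = 0.742), which was also lost with the macrophage markers as a covariate (limma adjusted p = 0.156). Of the tyrosylprotein sulfotransferases, which sulfate tyrosines of fibromodulin, Tpst1 was at 0.09 log2 (limma adjusted p = 0.687) and Tpst2 at 0.04 (limma adjusted p = 0.731). Neither was called, and both had an unadjusted p above 0.05 in limma.

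Genes of proteases that trim propeptides or cut the core proteins, listed together with procollagen C-proteinase enhancers, moved in both directions, 3 higher and 4 lower of 9 tested, with a median of 0.06 log2. Pcolce2, an enhancer of procollagen processing, was at 103, 289, 117 and 191 normalized counts in wild-type and at 18.4, 12.6, 20.1 and 17.2 in Lgr6-null (-3.18 log2, limma adjusted p = 0.000127). The other listed enhancer, Pcolce, named after its values were seen, was far higher, at 5060 ± 205 and 5292 ± 421 (SD, n = 4). It was not called (0.06 log2, limma adjusted p = 0.575). Bmp1, whose product removes the propeptide of biglycan, fell by 0.71 log2 (limma adjusted p = 0.00113), and Mmp13, a collagenase that cuts fibromodulin and biglycan, fell by 2.18 (limma adjusted p = 0.000141). Adamts5, an aggrecanase that cuts several of these proteoglycans, rose by 1.27 (limma adjusted p = 0.000144).

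Among 13 collagen chains that the family binds, 2 were called higher and 5 lower, with a median of -0.07 log2. The type I chains Col1a1 and Col1a2 fell by 2.60 and 2.28 log2, and the minor fibril chains Col5a2 and Col11a1 by 1.32 and 2.07 (limma adjusted p of 8.44e-05, 6.80e-05, 5.91e-05 and 0.000113). The chains called higher, named after their values were seen, were Col3a1 (0.93 log2) and Col5a3 (1.08).

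Of 20 receptors and growth factors known to bind members of the family, 18 were tested, 5 called higher and 4 lower, with a median of -0.01 log2. Egfr, a receptor that decorin binds, rose by 1.13 log2 (limma adjusted p = 0.0016), and Kdr, a vascular growth factor receptor, fell by 1.30 (limma adjusted p = 0.00372). Ccn4, a matricellular protein that binds decorin and biglycan, fell by 1.52 (limma adjusted p = 0.000649). Bmp6, a bone morphogenetic protein, was at 17.6, 2.84, 4.36 and 0 normalized counts in wild-type and 71.0, 40.2, 29.0 and 38.2 in Lgr6-null (3.29 log2, limma adjusted p = 0.0104). The calls of Ccn4 and Bmp6 were lost with the macrophage markers as a covariate (limma adjusted p of 0.117 and 0.201).

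Markers of cell types also moved with genotype. All 14 osteoblast markers were called lower in Lgr6-null, with summed normalized counts of 1342546 to 1744921 in wild-type and 233478 to 311397 in Lgr6-null, as were all 6 tested osteocyte markers, of which Dmp1 and Phex are in both lists. The osteoblast factors Runx2 and Sp7, for example, were at -1.27 and -2.08 log2, and lost their calls with the macrophage markers as a covariate (-0.22 and -1.17 log2, limma adjusted p of 0.482 and 0.0865). Of 18 macrophage markers 13 were called higher and 0 lower (sums of 311216 to 366906 and 453995 to 684737). Lyz2 was a large part of these sums, at 154682 to 187022 in wild-type and 240544 to 382491 in Lgr6-null. Col1a1, also among the collagen chains above, was a large part of the osteoblast sums (677450 to 955899 and 116621 to 142459). The fibroblast list had 4 of 7 tested genes higher and 1, Pcolce2, lower (sums of 1252 to 2396 and 2426 to 5233), with Pi16 and Clec3b at 0 in at least 1 library. The smooth muscle list had 4 of 6 higher and 0 lower (sums of 7988 to 17277 and 20900.1 to 28849), with Rgs5 at 0 in at least 1 library. Chondrocyte markers were 2 of 4 lower, and tendon cell markers 1 higher and 2 lower of 5. Adipocyte markers were 2 of 4 lower, endothelial markers 1 of 5 lower and osteoclast markers 1 higher and 2 lower of 5, while 1 granulocyte and 1 lymphocyte marker were tested and not called, and erythroid markers were too low to test. The part of these cell types in the levels of the proteoglycans was not tested.

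Genes known from mesenchymal cells, the labelled cell type, had summed counts of 96788 to 102326 in wild-type and 94512 to 112419 in Lgr6-null, which overlapped, with 5 of 14 tested called higher and 3 lower. Their mean log2 level was higher in every Lgr6-null library, at 10.59 to 11.02 in wild-type and 11.04 to 11.28 in Lgr6-null. With the macrophage markers, averaged on the log2 scale, as a covariate, the log2 fold changes were 2.58 for Lum (limma adjusted p = 0.0139), -1.56 for Prelp (0.0092), 1.92 for Ogn (0.00516) and 2.81 for Aspn (0.00629), which stayed called. Omd was then called higher (1.08, limma adjusted p = 0.014). The calls of Fmod (-1.02, limma adjusted p = 0.0683) and Dcn (0.96, limma adjusted p = 0.175) were lost. The summed macrophage markers did not overlap between the genotypes, so the covariate and the genotype are close to each other in this fit.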

How the data were processed

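Per the submitters' processing notes, reads were handled with HISAT2 2.1.1, HTSeq 0.13.5 and DESeq2 on GRCm39. Annotation and strand setting: not given in the sources used here. Each value, a signal deposited by the authors, is a normalized count per gene. In each column 100% of values were whole multiples of 1 step (tolerance 0.01), so whole reads were recovered; genes with under 11 reads in all are not analysed here. Symbols, lengths and distances came from GENCODE M21 (GRCm38) by gene ID (19361 matched, 99 did not).

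limma 3.58.1 (R 4.3.3) was fitted with a trend on log2(normalized count + 1), which understates changes of low genes, over genes with at least 10 in at least 4 libraries, tested on simulated data first. edgeR 4.0.16 and DESeq2 1.42.0 on recovered reads were among up to 20 alternatives per gene. Pairs were compared by exact permutation. Replicate libraries differed by far more than sampling noise.

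Named by rule were the members, Lgr6, up to 4 called genes of each related list by smallest p (or the smallest p where none was called), the 3 genes most like Fmod, Prelp, Lum and Dcn, and chromosome neighbours. The members and all lists were chosen with earlier results of these data known.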

Additional observations from a re-analysis of the deposited data

Results flagged for a closer look

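In 7 of 112 groups of 4 libraries, 1 library lay far from the other 3; chance gives about 1 in 20 groups. Dcn in wild-type M1 was the highest at 792 normalized counts, with the next at 569.7. The same library was highest for Chad, at 20.8 against 8.86, for Chst11, at 2341 against 1999, and for Col1a2, at 609476 against 481201. Adamts5 in wild-type M3 was the highest at 779, with the next at 611. Col11a1 in Lgr6-null M4 was at 3958 against 2264. Atp2b4 in Lgr6-null M3 was the lowest at 410.3, with the next at 687. The low Bgn of wild-type M0 was not among these, since its gap was a smaller part of the range.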

How the results depend on the processing

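Lum and Prelp kept direction and call under all 20 alternatives, with log2 fold changes of 1.22 to 2.58 and -1.56 to -0.94. Scaling to the same total called 2892 genes higher. The mesenchymal scaling shifted the median of all genes by -0.28 log2, and scaling to the same total moved it by 0.09; the former called 556 higher and 3311 lower. The macrophage covariate gave 360 higher and 554 lower, with 1 family member lower. Leaving out 1 library gave 1280 to 1797 higher and 1286 to 1764 lower genes, and 2 to 4 members higher and 2 to 3 lower; Bgn was the added one. Without 1 library, log2 fold changes were -0.98 to -0.43 for Bgn, 0.69 to 1.09 for Ogn and 0.90 to 1.56 for Aspn, and log2 ratios 1.22 to 1.72 for Dcn/Bgn, 1.44 to 2.15 for Aspn/Bgn, -3.57 to -3.14 for Fmod/Lum and 0.61 to 0.85 for Ogn/Omd; the adjusted p of these ratios rose to at most 0.0857. Bgn was called with the mesenchymal scaling (-0.88) and DESeq2 (-0.71), and Omd with the macrophage covariate (1.08). Calls were lost for Aspn without the trend (1.27) and for Fmod (-1.02) and Dcn (0.96) with the macrophage covariate. The cause was not tested.

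Libraries of the same column number did not deviate together (correlations of deviations of -0.0096, -0.1174 and 0.0267 for M0, M2 and M3). So few values cannot settle whether a column number marks a shared preparation. With that number as a replicate block, 937 genes were higher and 1021 lower, and 2 members higher, since Ogn (0.77 log2, limma adjusted p = 0.0783) and Aspn (0.96 log2, limma adjusted p = 0.103) lost their calls. B4galt1 also lost its call with that block (limma adjusted p = 0.0738).

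Of the other genes named, 47 gave 928 values under alternatives, 870 with the same direction and call, 29 without the call, 9 with a call gained and 20 with the sign turned. With the mesenchymal scaling the sign turned for Omd (-0.11), Tpst1 (-0.18), Btg1 (-0.0176), Atp2b1 (-0.21) and Acsf2 (-0.055). With the macrophage covariate it turned for Tpst1 (-0.39), Atp2b4 (0.58), Btg1 (-0.0466), Atp2b1 (-0.0282), Ecm2 (0.80), Nol8 (0.12) and Dusp9 (1.00), and with quantile normalization for Atp2b1 (-0.00493). Haus7 turned with the same total (0.0615), edgeR (0.00187) and the replicate block (0.0697). Without 1 library, ranges that crossed 0 were -0.15 to 0.0491 for Haus7, -0.000776 to 0.35 for Omd, -0.0118 to 0.17 for Tpst1, -0.20 to 0.0796 for Atp2b4 and -0.35 to 0.043 for Ecm2. None of these genes was called with the settings of the report.

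Depth limited Chad alone among the members with a row.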
